A study of Mus musculus with 6 samples.

Results

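The DNA replication machinery was read from mouse embryonic fibroblast (MEF) arrays as a list of 47 genes. They cover origin recognition and licensing, the CMG helicase, the replicative polymerases, the sliding clamp and its loader, RPA, Okazaki fragment processing, fork protection and topoisomerase I. Members were taken by name on the Illumina MouseWG-6 v2 array, which holds 94 probes annotated to these genes among 45281 probes and 19057 annotated genes. A probe was kept where its detection p-value, the chance of such a signal among negative control beads, was under 0.01 on at least 1 array. This kept 75 of the 94 probes and 44 of the 47 genes, out of 10160 genes tested. Pola1, Pole2 and Dna2 had no probe above background on any array and have no value here.

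RNA came from 2 Rnaseh2b-/- and 4 Rnaseh2b+/+ MEF lines. Rnaseh2b encodes a subunit of RNase H2, the enzyme that removes ribonucleotides built into DNA and cuts the RNA strand of RNA:DNA hybrids. The Rnaseh2b-/- lines carried the tm1d allele, in which an exon was excised, and all 6 lines, controls included, were also p53-/- on a C57BL/6J background. Each line was made from 1 whole E10.5 embryo, lines were matched for passage, and cells were kept at 3% O2 and 5% CO2, plated at 200000 cells per well and lysed at confluence 20 h after a change of medium. The study had chosen both Rnaseh2b-/- lines from a larger set for their interferon-stimulated gene response, so they are not a random draw of the genotype. Because all lines lacked p53, responses that depend on p53 were outside the design, and the mixture of cell types from a whole embryo can differ from line to line. Lines are numbered here by the replicate number in their labels.

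Replication starts with the origin recognition complex (ORC), which marks origins and, with Cdc6 and Cdt1, loads the ring-shaped MCM helicase while cells are in G1. In S phase Cdc45 and the GINS complex join MCM to form the active CMG helicase, polymerase alpha-primase lays down primers, and polymerases epsilon and delta extend the leading and lagging strands. Genes of this machinery are well known to be transcribed together as cells pass from G1 to S, largely through E2F transcription factors, so in a culture their summed RNA also follows the share of cycling cells. In bulk RNA, fewer cells expressing a gene and less of its RNA per cell cannot be told apart.

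Detected probes ranged from 15519 to 16114 per array, and the values of different lines over all tested genes correlated at r = 0.928 to 0.988. Rnaseh2b itself had normalized log2 signals of 5.43 and 5.53 in the Rnaseh2b-/- lines, against 9.81, 9.17, 9.48 and 9.50 in the Rnaseh2b+/+ lines (log2 fold change -4.01, limma adjusted p = 0.00121), as the labels state. All 14 fibroblast markers listed, among them collagen and Pdgfr genes, were above background on all 6 arrays. Markers of other cell types differed strongly between lines. Skeletal and cardiac muscle markers (16 of 19 above background on some array) averaged 4.94 log2 units above the control mean in Rnaseh2b-/- line 1 and 0.63 above it in line 2, and lay from -0.38 to 0.55 in the controls. Epithelial markers (7 of 14 above background) stood 2.23 and 1.29 units above the control mean in the Rnaseh2b-/- lines and from -0.34 to 0.30 in the controls. Most of this came from the keratins Krt8, Krt18, Krt19 and Krt7, with log2 fold changes of 3.16, 3.18, 2.43 and 2.31. Of the 14, 7 had no usable probe above background in any line, Epcam, Cldn4 and Dsp among them. Of the junction genes detected, Cdh1 was found in both Rnaseh2b-/- lines and 2 controls (log2 fold change 0.59), Cldn3 in 1 Rnaseh2b-/- line and 0 controls (0.62), and Cldn7 in 1 Rnaseh2b-/- line and 2 controls (0.02). These epithelial genes were named after their values were seen. Of neural, blood and endothelial markers, 5 of 10, 2 of 10 and 2 of 7 were above background on some array. Their part in the replication gene values was not tested.

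Transcripts of the replication machinery lay somewhat higher in the Rnaseh2b-/- lines, by a median of 0.33 on the log2 scale over the 44 tested genes, against a median of -0.02 over all 10160 genes. The log2 fold changes ran from -0.33 for Orc2 to 0.90 for Pole, and 42 of 44 were above 0 (95.5%, against 47.4% of all genes). No member passed the test: none was higher at an adjusted p under 0.05, where 0.354% of all genes were, and none was lower, where 0.157% were. At an unadjusted p under 0.05, 7 members were higher (15.9%, against 7.99% of all genes) and 0 were lower (9.13% of all genes were). These 7 were Cdt1, Cdc45, Rfc4, Rpa1, Orc5, Pole and Mcm4. Without Rnaseh2b-/- line 1 the median of the members was 0.18, against -0.01 for all genes, and 1 member was higher at that level (2.27%, against 6.65% of all genes). With each array scaled to the same median in place of quantile normalization, 2 members were higher (4.55%, against 5.18% of all genes). In both of these fits the share of members was below that of all genes. Both Rnaseh2b-/- lines lay above all 4 controls for 10 members (22.7%, against 12.5% of all genes) and below all 4 for none (15.1% of all genes). With 2 lines against 4 this is the most extreme order possible, and the smallest one-sided p an exact permutation test of such a design can give is 0.0667.

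**Figure D1:**
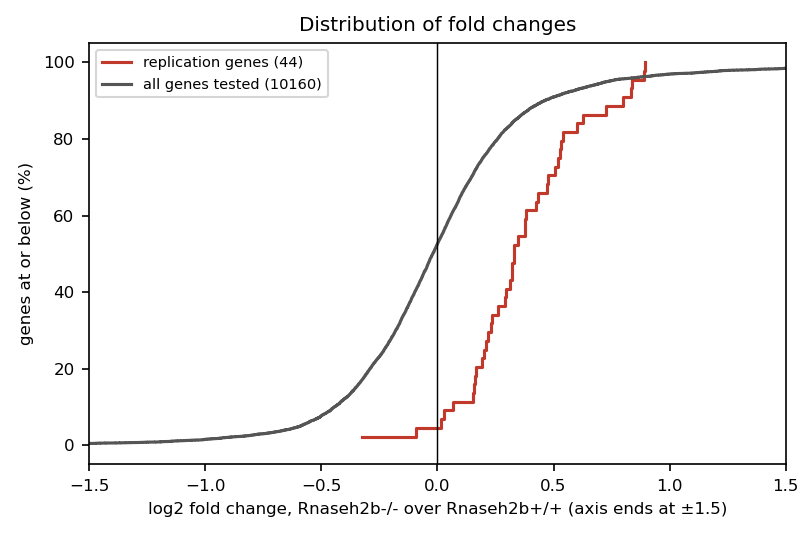
Cumulative share of genes (y, percent) at or below each log2 fold change, Rnaseh2b-/- over Rnaseh2b+/+ (x), for the 44 replication genes (red) and all 10160 genes tested (grey); the x axis ends at ±1.5. The red curve lies to the right of the grey one, with medians of 0.33 and -0.02.

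The 44 genes did not shift evenly over the lines of a group. Relative to the control mean, the members averaged 0.55 in Rnaseh2b-/- line 1 and 0.19 in Rnaseh2b-/- line 2, against 0.34, -0.18, -0.08 and -0.08 in Rnaseh2b+/+ lines 1 to 4. Line 1 of each genotype therefore stood high within its group. Rnaseh2b-/- line 1 exceeded all 4 controls for 31 members (70.5%, against 26.7% of all genes), and Rnaseh2b-/- line 2 did so for 12 (27.3%, against 24.1%). Rnaseh2b-/- line 2 was above Rnaseh2b+/+ line 1 for 16 of 44 members (36.4%, against 49.9% of all genes) but above the other 3 controls together for 28 (63.6%, against 31.8%). Among the controls, line 1 was the highest for 37 members (84.1%, against 32.7% of all genes) and line 2 the lowest for 26 (59.1%, against 24.7%).

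**Figure D2:**
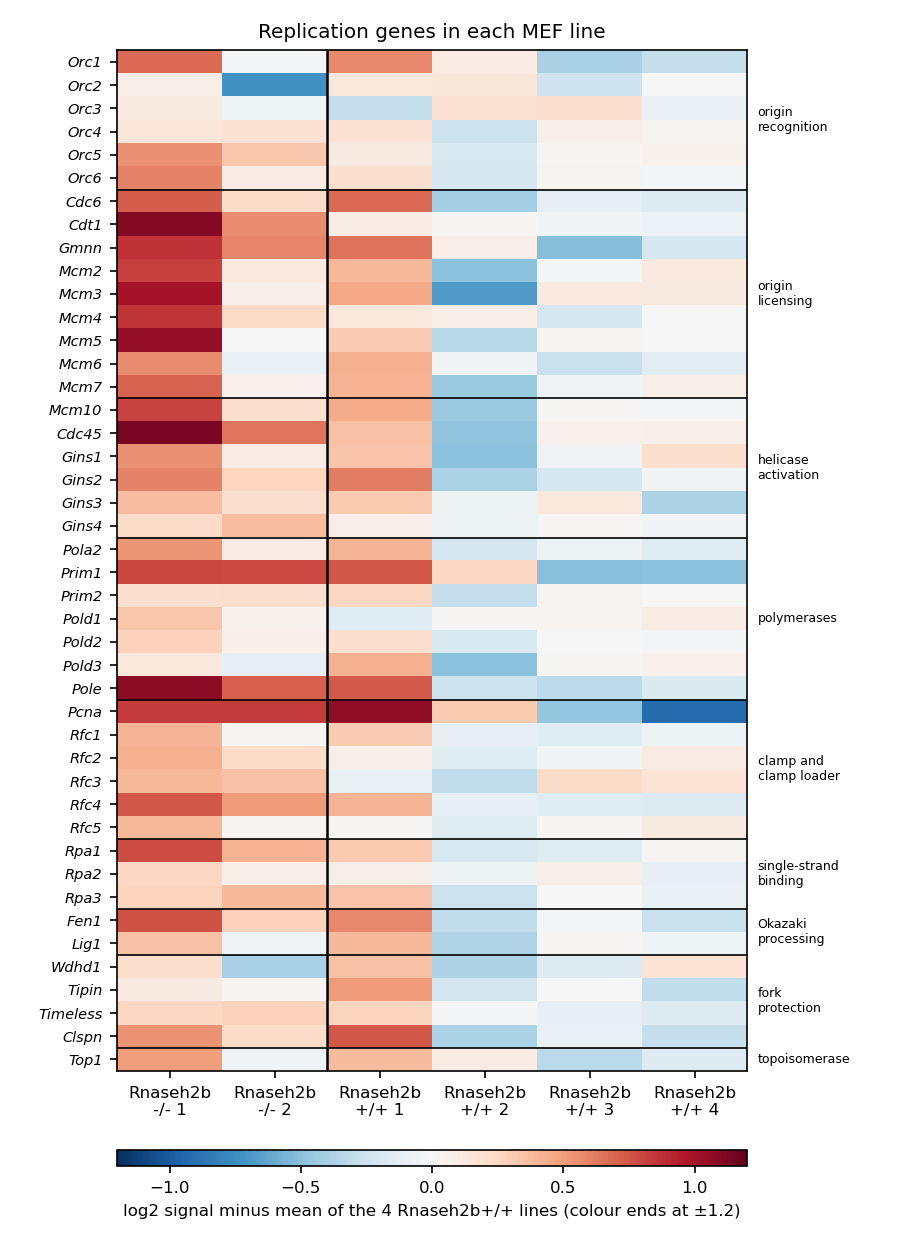
Log2 signal of each of the 44 tested replication genes (rows, grouped by role) in each MEF line (columns), minus the mean of the 4 Rnaseh2b+/+ lines; colour ends at ±1.2. Rnaseh2b-/- line 1 and Rnaseh2b+/+ line 1 are red for most genes, with list means of 0.55 and 0.34.

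The members also varied together. The SD among the 4 control lines had a median of 0.28 over the members and 0.19 over all genes tested, and 0.16 and 0.15 when Rnaseh2b+/+ line 1 was left out. Over the 6 lines, the median Pearson correlation between pairs of members was 0.711, and 93.6% of pairs were positive. No such value was computed over all genes, so it does not set the members apart from them. These 6 points share the arrays, the normalization and the difference between genotypes, so the value is a description.

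One known feature that replication genes share is the E2F element near the start of transcription, and the promoters were searched for it because the members varied together. The letters searched were TTTCCCGC, TTTCGCGC, TTTGCCGC and TTTGGCGC, on both strands, in RefSeq windows of 250 bases before to 50 after the annotated start (GRCm38.p6). Such a window was at hand for 38 members, and those of Gmnn, Mcm4, Gins1, Gins2, Gins4, Prim2, Pole, Rfc2 and Tipin were not examined. The letters were present in 16 of 38 members (42.1%, against 2.6% of 27025 genes with a window), and in 14 of 35 tested members (40%, against 4.65% of 8236 tested genes). The CCAAT box letters, also on both strands, were present in 60% of the 35 tested members, against 43.1% of tested genes. The following windows are printed 5′ to 3′ in the sense of the gene, with the E2F letters in capitals: that of Cdt1, the member with the smallest p, and those of Mcm3, Mcm5, Mcm6 and Rfc3, each of which holds more than 1 match. They are chr8:122567765-122568064 (plus strand) for Cdt1, chr1:20820263-20820562 (minus) for Mcm3, chr8:75109259-75109558 (plus) for Mcm5, chr1:128359656-128359955 (minus) for Mcm6 and chr5:151651159-151651458 (minus) for Rfc3.
Cdt1: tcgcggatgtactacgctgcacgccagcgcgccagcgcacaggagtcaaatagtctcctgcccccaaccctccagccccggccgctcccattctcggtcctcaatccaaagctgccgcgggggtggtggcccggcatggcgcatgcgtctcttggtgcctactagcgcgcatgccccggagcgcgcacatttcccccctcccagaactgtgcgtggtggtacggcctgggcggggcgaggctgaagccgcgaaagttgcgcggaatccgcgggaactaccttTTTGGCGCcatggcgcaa
Mcm3: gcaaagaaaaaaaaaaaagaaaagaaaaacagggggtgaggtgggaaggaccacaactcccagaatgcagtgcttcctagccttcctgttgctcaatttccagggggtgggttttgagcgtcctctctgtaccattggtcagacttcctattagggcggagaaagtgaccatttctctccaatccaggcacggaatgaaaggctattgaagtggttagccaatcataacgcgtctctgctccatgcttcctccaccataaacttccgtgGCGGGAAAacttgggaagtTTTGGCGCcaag
Mcm5: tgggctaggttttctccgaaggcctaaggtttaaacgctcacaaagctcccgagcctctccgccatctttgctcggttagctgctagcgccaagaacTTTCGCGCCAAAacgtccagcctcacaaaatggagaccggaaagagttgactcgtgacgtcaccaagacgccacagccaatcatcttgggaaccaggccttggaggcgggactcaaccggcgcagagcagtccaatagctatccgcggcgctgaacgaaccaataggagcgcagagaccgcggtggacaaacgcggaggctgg
Mcm6: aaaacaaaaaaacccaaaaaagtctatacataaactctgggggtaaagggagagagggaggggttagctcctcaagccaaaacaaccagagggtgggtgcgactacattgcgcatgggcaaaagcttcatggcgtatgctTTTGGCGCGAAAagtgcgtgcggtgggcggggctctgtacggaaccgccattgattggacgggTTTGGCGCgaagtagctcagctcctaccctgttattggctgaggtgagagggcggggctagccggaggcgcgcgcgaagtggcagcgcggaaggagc
Rfc3: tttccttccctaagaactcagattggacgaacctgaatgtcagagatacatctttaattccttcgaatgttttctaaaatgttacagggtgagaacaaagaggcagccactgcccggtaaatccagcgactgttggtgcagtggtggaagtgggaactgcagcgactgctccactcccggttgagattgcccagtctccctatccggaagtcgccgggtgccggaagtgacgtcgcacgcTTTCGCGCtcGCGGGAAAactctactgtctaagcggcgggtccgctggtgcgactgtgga

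In Cdt1 the single match began 32 bases after the annotated start, inside the transcribed part. Mcm3 had matches 19 and 38 bases after the start. In Mcm5 the 2 matches, on opposite strands, began 153 and 149 bases before the start and overlap by 4 bases. Mcm6 had such an overlapping pair 110 and 106 bases before the start and a further match at 47 bases before it. In Rfc3 the 2 matches began 10 bases before the start and at the start itself. No match was present in the windows of Cdc45, Rfc4, Rpa1, Orc5 or Pcna. The median log2 fold change was 0.35 for the 14 tested members with the letters and 0.33 for the 21 without. Other spellings and bases outside the windows were not searched, so members without the letters can still hold E2F sites. The 2 medians therefore cannot show whether such sites go with the fold changes.

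Origin recognition genes had fold changes of both signs. The 6 ORC subunits had a median log2 fold change of 0.24, and 1 of 6 had an unadjusted p under 0.05. This was Orc5 (chr5:22486480-22550338), an ATPase-fold subunit of the complex, with log2 signals of 8.47 and 8.25 in the Rnaseh2b-/- lines and 8.03, 7.74, 7.95 and 7.97 in the Rnaseh2b+/+ lines. Both Rnaseh2b-/- lines lay above every control, by a log2 fold change of 0.43 ± 0.15 (SE, limma; unadjusted p = 0.0205, adjusted p = 0.218). Orc6, Orc1, Orc4 and Orc3 had log2 fold changes of 0.35, 0.33, 0.16 and 0.03. Orc2 had the lowest fold change of all members (-0.33, limma adjusted p = 0.520), with 5.57 and 4.77 in the Rnaseh2b-/- lines against 5.62, 5.63, 5.24 and 5.49 in the controls, so that only Rnaseh2b-/- line 2 lay below them. Orc1 and Orc2 were dim. Orc1 was detected in 1 Rnaseh2b-/- line and 1 control, and Orc2 in 1 Rnaseh2b-/- line and 2 controls.

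Licensing genes stood highest, with a median log2 fold change of 0.53 over 9 genes, all above 0. Cdt1 (chr8:122568015-122573130), the factor that brings MCM to origins and is destroyed once S phase begins, had log2 signals of 10.67 and 10.14 in the Rnaseh2b-/- lines and 9.67, 9.59, 9.54 and 9.50 in the Rnaseh2b+/+ lines. The group means were 10.41 ± 0.37 (SD, n = 2) and 9.58 ± 0.07 (SD, n = 4), and the groups were separate by more than the whole range of the controls. The log2 fold change was 0.83 ± 0.17 (SE), a fold of 1.78, with a 95% interval of 0.42 to 1.24. Its limma adjusted p of 0.0893 was the smallest of any member and did not pass, although the unadjusted p was 0.00192. With each line left out in turn, the log2 fold change of Cdt1 was lowest without Rnaseh2b-/- line 1 (0.57, adjusted p = 0.276) and highest without Rnaseh2b-/- line 2 (1.10, adjusted p = 0.0201). Both of these fits hold 1 Rnaseh2b-/- line, which is assumed to vary like the controls. Leaving out a control gave adjusted p-values from 0.0793 (line 1) to 0.247 (line 4).

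Cdc6, the ATPase that works with Cdt1, differed by 0.48 on the log2 scale (limma adjusted p = 0.469), with control line 1 between the Rnaseh2b-/- lines: 8.31 and 7.80 in Rnaseh2b-/- cells against 8.26, 7.16, 7.47 and 7.43 in Rnaseh2b+/+ cells. Geminin, the inhibitor of Cdt1 encoded by Gmnn, differed by 0.73 (adjusted p = 0.294), but it was detected in only 1 of 4 controls, against both Rnaseh2b-/- lines.

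The 6 subunits of the MCM helicase, the motor that unwinds the fork, had log2 fold changes from 0.24 for Mcm6 to 0.54 for Mcm4, with a median of 0.50. On average, most of the difference lay in 1 line. Averaged over the 6 subunits, Rnaseh2b-/- line 1 stood 0.83 above the control mean and Rnaseh2b-/- line 2 stood 0.06 above it, while Rnaseh2b+/+ line 1 was 0.36 above. Mcm4 (chr16:15623897-15637400) was the subunit with an unadjusted p under 0.05. Its log2 signals were 8.41 and 7.78 in the Rnaseh2b-/- lines and 7.68, 7.63, 7.35 and 7.56 in the Rnaseh2b+/+ lines, so that Rnaseh2b-/- line 2 exceeded the highest control by less than the spread of the controls (log2 fold change 0.54 ± 0.20, SE, limma; adjusted p = 0.249). The 3 probes of Mcm4 gave log2 fold changes of 0.53, 0.55 and 0.55. Those of Mcm6 were less alike, at 0.46, 0.31, 0.08 and 0.09, with 0.46 from the brightest.

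Among the genes whose promoters are printed above, and named for that reason after their values were seen, Mcm5 had 11.41 and 10.36 in the Rnaseh2b-/- lines against 10.67, 10.02, 10.38 and 10.36 in the Rnaseh2b+/+ lines. Mcm3 had 8.57 and 7.64 in the Rnaseh2b-/- lines against 8.03, 6.89, 7.69 and 7.68 in the controls. In both genes Rnaseh2b-/- line 1 was the highest of the 6 lines and Rnaseh2b-/- line 2 was within the range of the controls (log2 fold changes 0.53 and 0.53, limma adjusted p = 0.412 and 0.489). Mcm2 and Mcm7 gave 0.47 and 0.38.

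**Figure D3:**
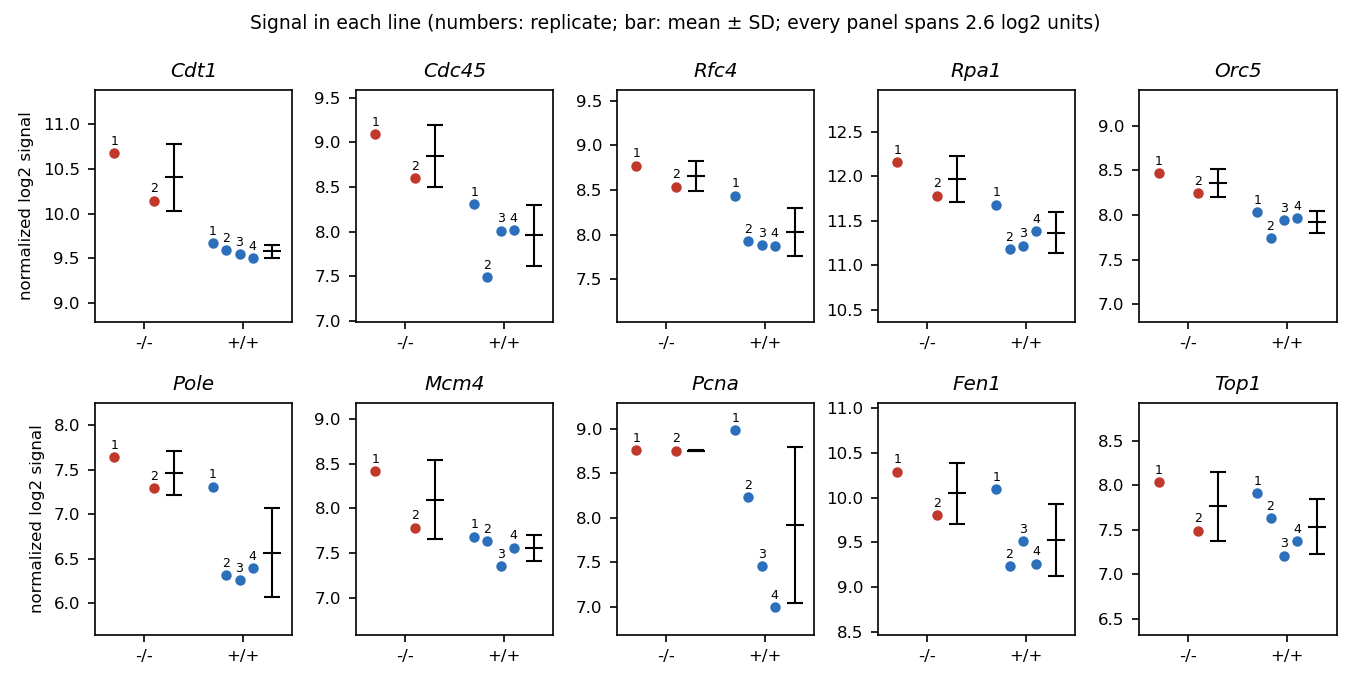
Normalized log2 signal (y) of 10 replication genes in the 2 Rnaseh2b-/- lines (red) and the 4 Rnaseh2b+/+ lines (blue), with the replicate number over each point; black bars are the mean ± SD of each group and every panel spans 2.6 log2 units. In Cdt1 the groups are apart (10.67 and 10.14 against at most 9.67), while in Pcna control line 1 (8.98) is the highest of all.

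Helicase activation followed the same direction in all 6 genes, with a median log2 fold change of 0.37. Cdc45 (chr16:18780447-18811972), which joins MCM and GINS as the CMG helicase and is limiting for origin firing, had log2 signals of 9.10 and 8.60 in the Rnaseh2b-/- lines and 8.31, 7.49, 8.01 and 8.02 in the Rnaseh2b+/+ lines. Both Rnaseh2b-/- lines lay above every control, with a log2 fold change of 0.89 ± 0.25 (SE, limma; 95% interval 0.29 to 1.49; unadjusted p = 0.00961, adjusted p = 0.166). The 4 GINS subunits had log2 fold changes from 0.29 for Gins3 to 0.43 for Gins2, with Gins4 separate from the controls in both lines. Mcm10, which helps to activate the loaded helicase, gave 0.50 (adjusted p = 0.384).

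Polymerase genes gave a lower median, 0.20 over 7 tested genes. Pole (chr5:110286319-110337468), the catalytic subunit of leading strand polymerase epsilon, which is known from yeast to place many of the ribonucleotides found in DNA, had the largest log2 fold change of all members. Its log2 signals were 7.64 and 7.29 in the Rnaseh2b-/- lines and 7.31, 6.32, 6.26 and 6.39 in the Rnaseh2b+/+ lines. Control line 1 lay as high as Rnaseh2b-/- line 2, apart from the other controls, and the log2 fold change was 0.90 ± 0.31 (SE, limma; 95% interval 0.15 to 1.64; adjusted p = 0.231). Without Rnaseh2b+/+ line 1 the log2 fold change of Pole was 1.14, with an adjusted p of 0.0302. It was 0.73 without Rnaseh2b-/- line 1 (adjusted p = 0.562), 1.07 without Rnaseh2b-/- line 2 (0.232), and 0.79 to 0.84 without each of the other controls (0.383 to 0.425).

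Subunits of the lagging strand polymerase delta had log2 fold changes from 0.01 to 0.19. Pold1, its catalytic subunit, had 9.72 and 9.43 in the Rnaseh2b-/- lines against 9.25, 9.40, 9.42 and 9.48 in the Rnaseh2b+/+ lines, where Rnaseh2b-/- line 2 lay inside the controls (log2 fold change 0.19, 95% interval -0.15 to 0.54, limma adjusted p = 0.537). Pold2 and Pold3 gave 0.17 and 0.01. In the primase complex, Prim1, the catalytic primase, gave 0.80 (adjusted p = 0.311), with 6.51 and 6.50 in the Rnaseh2b-/- lines against 6.46, 5.95, 5.21 and 5.21 in the controls. It was detected in both Rnaseh2b-/- lines and in 2 of 4 controls. Prim2 and Pola2 gave 0.20 and 0.31.

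The clamp and its loader had a median log2 fold change of 0.35 over 6 genes. Pcna (chr2:132249286-132253180), the sliding clamp that tethers polymerases to DNA and also binds RNase H2, had 8.75 and 8.75 in the Rnaseh2b-/- lines, against 8.98, 8.23, 7.46 and 6.996 in the Rnaseh2b+/+ lines. The Rnaseh2b-/- lines were alike and lay inside the wide range of the controls, whose SD of 0.87 was the largest among members, so that a log2 fold change of 0.84 had a 95% interval of -0.36 to 2.03 (limma adjusted p = 0.430).

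Rfc4 (chr16:23113948-23127730), a small subunit of the clamp loader, had 8.77 and 8.54 in the Rnaseh2b-/- lines and 8.44, 7.92, 7.88 and 7.88 in the Rnaseh2b+/+ lines, with both Rnaseh2b-/- lines above every control (log2 fold change 0.63 ± 0.20, SE, limma; adjusted p = 0.202). Its 2 probes differed in size, at 0.86 and 0.39. Rfc1, the large subunit, had 9.37 and 8.97 in the Rnaseh2b-/- lines against 9.26, 8.86, 8.82 and 8.90 in the Rnaseh2b+/+ lines, and the groups overlapped (0.21, adjusted p = 0.593). Rfc2, Rfc3 and Rfc5 gave 0.32, 0.38 and 0.22, and in Rfc2 and Rfc3 both Rnaseh2b-/- lines lay above all controls. The brightest probe of Rfc5 gave 0.47. Its dimmer probes gave 0.08 and 0.10, the last above background on 1 Rnaseh2b-/- array only.

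The single-strand binding complex RPA, which coats unwound DNA and recruits checkpoint kinases, had a median log2 fold change of 0.33. Rpa1 (chr11:75300259-75348454), the large subunit that holds most of the contacts with DNA, had 12.15 and 11.78 in the Rnaseh2b-/- lines and 11.68, 11.19, 11.22 and 11.39 in the Rnaseh2b+/+ lines. Both Rnaseh2b-/- lines lay above every control, the second by only a small step over control line 1, and the log2 fold change was 0.60 ± 0.19 (SE, limma; 95% interval 0.15 to 1.06; adjusted p = 0.203). Rpa2 and Rpa3 gave 0.16 and 0.33. The 3 probes of Rpa2 did not have 1 sign (0.53, 0.28 and -0.32), and the negative one was above background on 1 array of 6.

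Okazaki fragment processing (2 of 3 genes tested) and topoisomerase I had log2 fold changes whose intervals all included 0. In yeast, the flap nuclease Fen1 and the replicative DNA ligase act in the excision repair of ribonucleotides that RNase H2 starts, and Top1 cuts DNA at ribonucleotides that RNase H2 has not removed. Fen1 (chr19:10199132-10204393) had 10.29 and 9.80 in the Rnaseh2b-/- lines against 10.10, 9.23, 9.51 and 9.26 in the Rnaseh2b+/+ lines. Control line 1 lay between the Rnaseh2b-/- lines, and the log2 fold change of 0.52 had a 95% interval of -0.14 to 1.18 (limma adjusted p = 0.378). Lig1 (chr7:13277175-13311426) had 7.29 and 6.89 in the Rnaseh2b-/- lines against 7.33, 6.58, 6.96 and 6.89 in the controls, with both Rnaseh2b-/- lines inside the control range (0.15, 95% interval -0.38 to 0.69, adjusted p = 0.759). Top1 (chr2:160645897-160722764) had 8.04 and 7.49 in the Rnaseh2b-/- lines against 7.91, 7.63, 7.21 and 7.37 in the controls (0.23, 95% interval -0.35 to 0.81, adjusted p = 0.652). Its groups also overlapped, with Rnaseh2b-/- line 2 below control lines 1 and 2.

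Fork protection genes gave the lowest median of the roles with more than 1 gene, 0.16 over 4 genes. Claspin, encoded by Clspn (chr4:126556957-126594533), an adaptor between stalled forks and the kinase Chk1, had 7.59 and 7.27 in the Rnaseh2b-/- lines against 7.80, 6.67, 6.97 and 6.78 in the Rnaseh2b+/+ lines. Control line 1 was the highest of the 6 lines and the log2 fold change of 0.38 was smaller than the SD of the controls, 0.51 (limma adjusted p = 0.573). Timeless, which forms the fork protection complex with Tipin, gave 0.26. Tipin itself gave 0.07, with probes of both signs (0.56, -0.11 and -0.26). Wdhd1, which links polymerase alpha to the helicase, was the other member below 0, at -0.09 (adjusted p = 0.879).

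**Figure D4:**
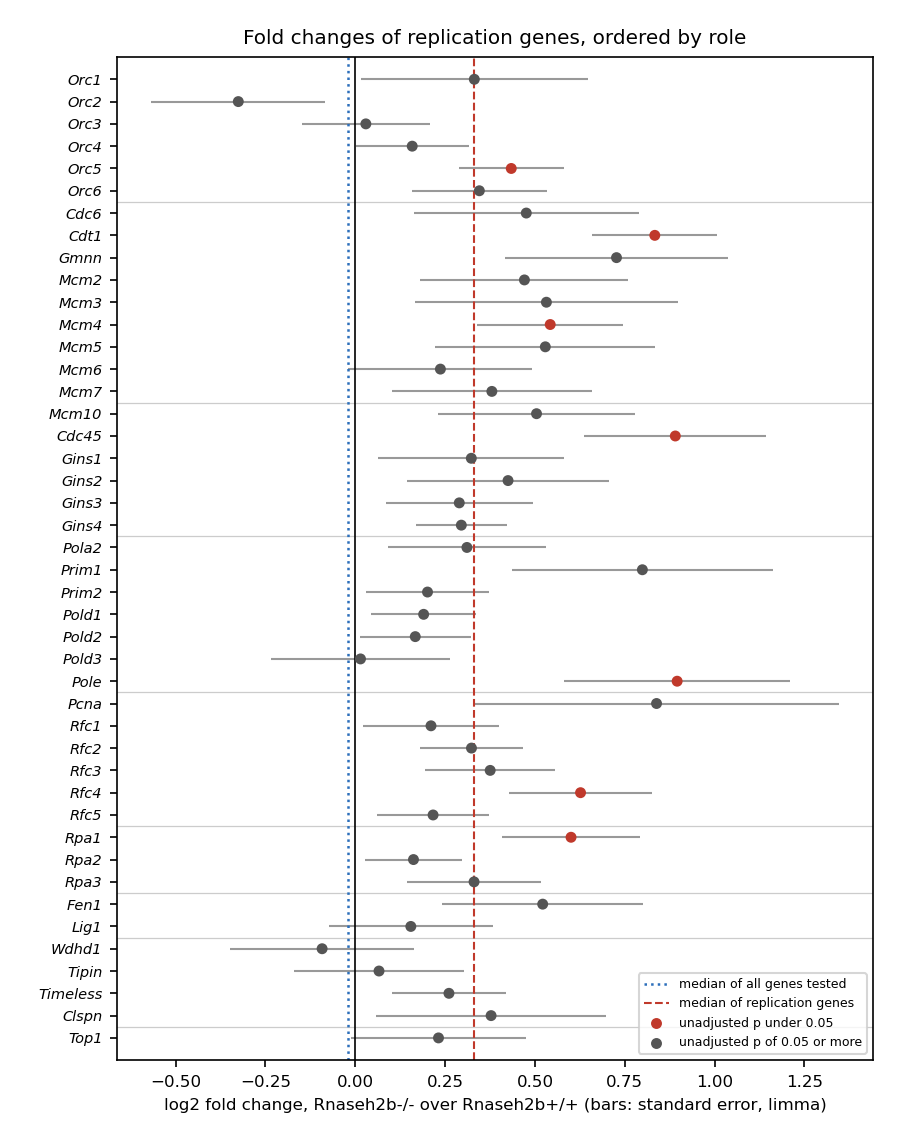
Log2 fold change, Rnaseh2b-/- over Rnaseh2b+/+ (x), of the 44 tested replication genes ordered by role (y); bars are the limma SE and red points have an unadjusted p under 0.05. The 7 red points lie from 0.43 (Orc5) to 0.90 (Pole), and Orc2 and Wdhd1 alone lie below 0.

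Read probe by probe, 14 of the 75 kept member probes were higher at an unadjusted p under 0.05 (18.7%, against 7.12% of 15805 probes tested), 0 were lower (9.09% of all probes were), and 70 of 75 were above 0. A Clspn probe among the 14 (log2 fold change 0.37) was above background on 1 Rnaseh2b-/- array and 0 controls. The filter thus kept it through the group where it was higher. None of the probes passed an adjusted p of 0.05 in limma. Of the 16 genes with several kept probes, Rpa2 and Tipin had probes of opposite sign.

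Other replication genes, a second list of 36 that holds helicase regulators, alternative clamp loaders and histone chaperones, leaned the same way but less evenly. Of 30 tested, 21 had a log2 fold change above 0 (70%, against 95.5% of the members and 47.4% of all genes) and 9 were below 0. At an unadjusted p under 0.05, 8 of 30 tested genes were higher (26.7%, against 7.99% of all genes) and 0 were lower, with a median log2 fold change of 0.28, and 0 passed the adjusted threshold. The smallest p-values belonged to Top3a, a topoisomerase, Chaf1b, a subunit of the chaperone that places histones behind the fork, and Recql4, a helicase, with log2 fold changes of 0.56, 0.70 and 0.72 (limma adjusted p = 0.114, 0.129 and 0.206). Chaf1b had 9.50 and 9.20 in the Rnaseh2b-/- lines against 8.93, 8.51, 8.56 and 8.62 in the Rnaseh2b+/+ lines, with no overlap.

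Further G1/S genes, such as E2F factors and enzymes of nucleotide supply, gave a smaller median. At that threshold 1 of 16 tested genes (21 were listed) was higher (6.25%, against 7.99% of all genes) and 0 were lower, and the median log2 fold change was 0.20. The gene higher was E2f2, an activating E2F, with 7.31 and 6.13 in the Rnaseh2b-/- lines against 5.59, 5.28, 5.48 and 5.03 in the Rnaseh2b+/+ lines (log2 fold change 1.37 ± 0.33, SE, limma; adjusted p = 0.121). Usp1 and Tyms followed by p, at -0.34 and 0.33 (adjusted p = 0.307 and 0.456).

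Markers of mitosis, which report dividing cells, followed the same lines as the replication genes. At that threshold 2 of 21 tested markers (27 were listed) were higher (9.52%, against 7.99% of all genes) and 0 were lower, with a median log2 fold change of 0.29. Relative to the control mean they averaged 0.55 in Rnaseh2b-/- line 1 and 0.07 in Rnaseh2b-/- line 2, against 0.51, -0.31, -0.12 and -0.08 in Rnaseh2b+/+ lines 1 to 4. Control line 1 was the highest control for 21 of 21 markers (100%, against 32.7% of all genes). The highest of all 6 lines was Rnaseh2b-/- line 1 for 10 markers (47.6%, against 21.9%) and Rnaseh2b+/+ line 1 for 11 (52.4%, against 17.9%). The leading markers by p were Nusap1, Ube2c and Tpx2 (log2 fold changes 0.68, 1.15 and 0.41, limma adjusted p = 0.209, 0.233 and 0.427). Mki67, Ccnb1, Ccnb2, Bub1, Kif20a and Cenpe had no usable probe above background on any array. Genes without a usable probe are not told apart here from undetected ones.

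**Figure D5:**
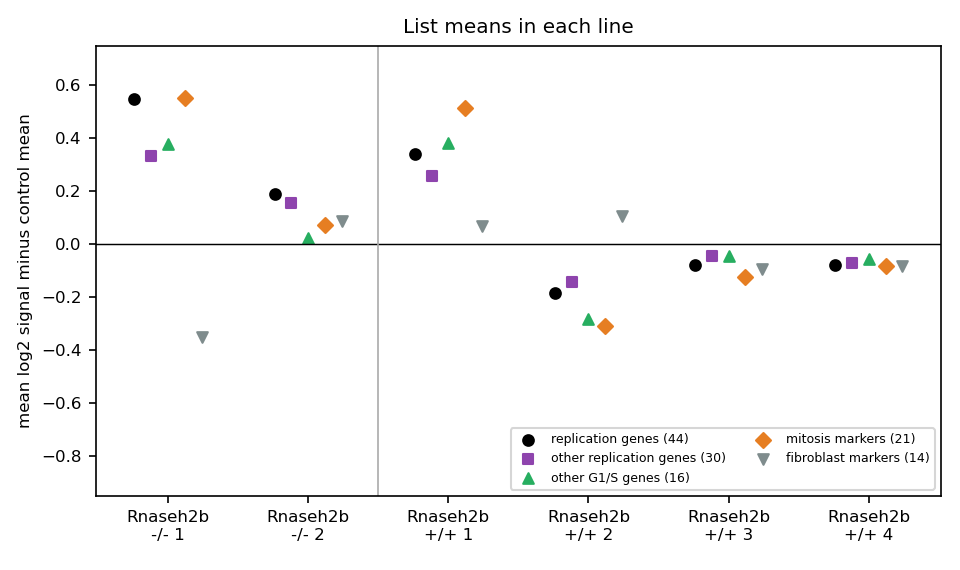
Mean log2 signal minus the control mean (y) of 5 gene lists in each MEF line (x), with the number of tested genes in the legend. Replication genes (black) and mitosis markers (orange) are highest in Rnaseh2b-/- line 1 (0.55 and 0.55) and Rnaseh2b+/+ line 1 (0.34 and 0.51); fibroblast markers (grey) are lowest in Rnaseh2b-/- line 1 (-0.35).

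Fibroblast markers averaged -0.35 in Rnaseh2b-/- line 1 and 0.09 in Rnaseh2b-/- line 2, and lay between -0.09 and 0.10 in the controls. Leaving out line 1 of each genotype, the lines highest in mitosis markers, left 1 Rnaseh2b-/- line against 3 controls, in which the lone line is assumed to vary like the controls. The median log2 fold change of 43 tested members was then 0.25, against -0.02 for all genes, and that of Orc2 was -0.68. No member passed the adjusted threshold. Without Rnaseh2b-/- line 1 alone the median of the members was 0.18, against -0.01 for all genes. Without Rnaseh2b+/+ line 1 alone it was 0.44, against -0.02. How far the share of dividing cells accounts for the values of the replication genes was not tested.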

How the data were processed

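RNA of 6 MEF lines was measured on 1-colour Illumina MouseWG-6 v2 arrays. BeadStudio gave the probe intensity that the authors deposited, without background correction or normalization, and beside it a detection p-value. The deposited log2 values, normalized by the authors with neqc, served as an alternative and differed from those computed here by at most 0.109.

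Here neqc of limma 3.58.1 (R 4.3.3, offset 16) was run on the intensity, and it took the background from the detection p-values, whose smallest step was 1 in 936. Of 45281 probes, 34885 had 1 gene symbol, 18 several and 10378 none. RefSeq of GRCm38.p6 updated the symbols by gene number, and only probes with a single symbol were used. Of 18271 probes with a detection p under 0.01 on at least 1 array, 15805 had 1 symbol, and averaging the probes of a gene gave 10160 genes. All 47 members matched a current symbol. The 2 groups were compared by lmFit and eBayes (residual degrees of freedom 4, prior 3.07), with the Benjamini-Hochberg adjustment over all genes and a threshold of 0.05. Precision is limited by the number of lines. The p-values set the difference between the groups against the spread between these lines, with the variance of each gene drawn towards that of all genes.

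Members and lists were chosen with earlier results of these data known. Values in each line are given for members at an unadjusted p under 0.05, the member with the largest change in each role, and Pcna, Fen1, Lig1, Pold1, Pole, Rfc1 and Top1, and of other lists the 3 members with the smallest p are named. Per-line values of Orc2, Cdc6, Prim1, Mcm3 and Mcm5 are given beyond this rule, after they were seen, and undetected markers are named. Alternatives were no filter, a stricter filter, the deposited log2 values, median scaling, cyclic loess, the brightest probe, each probe on its own, a variance trend, array weights, the replicate number as a block, and each line left out. The steps were tested on simulated arrays. Which arrays shared a BeadChip is not given in the sources used here.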

Additional observations from a re-analysis of the deposited data

Results flagged for a closer look

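In 5 of 56 sets of control values examined, Rnaseh2b+/+ line 1 stood apart, with a gap to the nearest control, as a share of the whole range of the 4 controls, above Dixon's 95% critical value for 4 values. Chance gives about 1 in 20, or 2.8 of 56, but the sets are not independent. All of them use the same 4 controls, and the members varied together. The means of the polymerase and clamp genes also include Pole and Rfc4. An offset of 1 line can thus be counted several times, so the 5 cannot be judged against 2.8. The ratio of gap to range was 0.872 for Pole and 0.915 for Rfc4, both named above with their values in every line. It was 0.913 for the mean of the origin recognition complex genes, 0.874 for the mean of the polymerase genes and 0.893 for the mean of the clamp and clamp loader genes. In each of the 5, Rnaseh2b+/+ line 1 was the line apart and lay above the other controls.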

How the results depend on the processing

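The median log2 fold change of the members was above 0 in every alternative run, from 0.17 with median scaling, where the median of all genes was -0.16, to 0.54 without Rnaseh2b-/- line 2. Members higher at an unadjusted p under 0.05 numbered 11 of 40 with detection required on all 6 arrays (27.5%, against 7.27% of all genes), 2 with median scaling (4.55%, against 5.18%), 14 of 75 with each probe tested (18.7%, against 7.12%), and 1 to 19 when each line was left out. These were 1 without Rnaseh2b-/- line 1 (2.27%, against 6.65%), 12 without Rnaseh2b-/- line 2 (27.3%, against 9.16%), 19 without Rnaseh2b+/+ line 1 (43.2%, against 10.2%) and 5 without each of the others (11.4%, against 5.67% to 6.51%). The share of members was thus below that of all genes under median scaling and without Rnaseh2b-/- line 1. The 14 probes include the Clspn probe that was kept through 1 Rnaseh2b-/- array. Leaving out line 1 of both genotypes, an alternative chosen after seeing the data, gave a median log2 fold change of 0.25, against -0.02 for all genes. With each control left out in turn, 0 members were lower at an unadjusted p under 0.05, against 6.3% to 12% of all genes. Without Rnaseh2b-/- line 1 the log2 fold change of Orc2 was -0.73. Members past an adjusted p of 0.05 in limma numbered 0 to 1: Cdt1 without Rnaseh2b-/- line 2 (log2 fold change 1.10, adjusted p = 0.0201) and Pole without Rnaseh2b+/+ line 1 (1.14, adjusted p = 0.0302). No alternative that kept all lines gave one. The cause was not tested.

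With the replicate block, 5 members were higher at an unadjusted p under 0.05 (11.4%, against 4.41% of all genes), the median log2 fold change was 0.29, that of Pole was 0.65 (limma adjusted p = 0.557) and 0 of all genes passed the adjusted threshold. Samples of the same number correlated at 0.0959 and 0.0611 in their deviations from the group means, and all pairs ran from -0.0959 to 0.0959. With 2 Rnaseh2b-/- lines the deviations of one mirror those of the other, so these values cannot decide whether the number marks a pairing. Labels give no shared litter, and the number was not taken as a pairing.

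The sign of 11 members that did not pass turned in some alternative. Under median scaling the log2 fold change of Orc3 was -0.092, of Pold2 -0.017, of Pold3 -0.14 and of Tipin -0.077. Under the block Orc1 was -0.0050, Tipin -0.079 and Top1 -0.0088. With array weights Orc3 was -0.015, and with the brightest probe Tipin was -0.11. With line 1 of both genotypes left out, Orc3 was -0.15 and Pold1 -0.00063. With each line left out in turn, Orc1 ran from -0.014 to 0.68, Orc2 from -0.73 to 0.078, Orc3 from -0.068 to 0.11, Mcm6 from -0.089 to 0.57, Pold3 from -0.15 to 0.16, Lig1 from -0.044 to 0.35, Wdhd1 from -0.40 to 0.21, Tipin from -0.032 to 0.24 and Top1 from -0.041 to 0.51. Dim members, such as Orc1, Orc2 and Gmnn, were detected on part of the arrays only.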
